A study of Mus musculus with 24 samples.

Results

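The lung response to 2 carbon nanotubes, tCNT and BayTubes, was compared with the response to 2 carbon materials that are not tubes, Graphite and fullerene. The members were chosen by sample title alone: 7 tube samples (3 of tCNT, 4 of BayTubes) against 8 non-tube samples (4 of Graphite, 4 of fullerene), 15 of the 24 samples of the series. Each material counted equally, so that the difference is the mean of tCNT and BayTubes minus the mean of Graphite and fullerene. Another nanotube, rCNT, was kept out of the comparison. The sample labels do not state the stiffness of any tube, and the comparison does not separate tube shape from other properties of the materials.

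All groups were lung tissue of female C57BL/6 mice aged 7 to 8 weeks, with no genetic change named in the labels. Each mouse received 10 µg of its material in 50 µl of phosphate-buffered saline (PBS) by oropharyngeal aspiration, in which liquid placed at the back of the throat is inhaled, on each of 4 days. Lung tissue was collected 24 h after the final dose, and control mice (Ctrl, 3 samples) were treated with PBS only. The remaining groups, rCNT and a material labelled SES, had 3 samples each. Every sample was RNA pooled from 2 mice, so a replicate is a pool, and because whole lung was measured, more cells of a type and more RNA per cell cannot be told apart. RNA was measured on 12 two-colour arrays on 3 slides, with a different sample in each colour.

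The conducting airways of the lung are lined by secretory cells and by multiciliated cells, whose beating cilia move mucus and trapped particles outward. A cell that becomes multiciliated first makes many centrioles, the bases of the cilia, on structures called deuterosomes, and then assembles the motile cilia. Mucus itself is built from mucins, large glycoproteins that are either secreted, as the gel-forming mucins of goblet cells are, or anchored in the cell membrane as a coat on the airway surface.

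Tubes and non-tubes differed in few genes at the level of single genes. Of 16530 genes, 7 were higher after tubes than after non-tubes and 0 were lower at an adjusted p under 0.05 (limma, Benjamini-Hochberg adjustment over all genes), which is 0.0423% of the genes tested. At an unadjusted p under 0.05, 772 genes were higher and 1166 lower, 11.7% of all genes. The median difference over all genes was -0.02 on the log2 scale, with a median standard error of 0.10. The count of 7 depended on single samples. It was 0 without tCNT 8, 0 without tCNT 9, 3 without fullerene 24 and 4 without BayTubes 20. The count rose to 12 without BayTubes 19, 13 without Graphite 15, 15 without fullerene 22 and 19 without fullerene 21. In the fits that left out 1 of the 15 samples, Foxn4, Deup1 and Muc20 each passed in 13, E230025N22Rik in 12, Ccno in 10, Muc4 in 8 and AU040972 in 6.

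The 7 genes were Foxn4, Deup1, Ccno, Muc20, Muc4, the long non-coding RNA gene AU040972, and E230025N22Rik, a protein-coding gene. Of these, 3 belong to the making of multiciliated cells and 2 encode membrane mucins. All 7 differed in the same direction within each of the 3 slides, which held 5 tube against 3 non-tube samples, 1 against 3, and 1 against 2. In that order of slides the difference was 0.92, 0.95 and 0.89 for Deup1, 0.95, 0.91 and 0.75 for Foxn4, 0.85, 0.91 and 0.80 for Ccno, 0.50, 0.74 and 0.83 for Muc20 and 0.34, 0.63 and 0.90 for Muc4. In the same order of slides, 12839, 11048 and 9835 of all 16530 genes had the direction of their difference in the whole comparison. The slides divide the same samples that picked the 7 genes, so this agreement is a description and not a repeat. The count of genes that passed was 4 with slide as a fixed term and 0 with array as a fixed term, which leaves differences within arrays only. Only the array of fullerene 24 and tCNT 9 held both a tube and a non-tube sample, so other links between the sides ran through further groups. With the fitted dye effect removed, all 7 tube samples lay above all 8 non-tube samples for 5 of the 7 genes, while this held for 0.0665% of all genes. Since the same samples picked the 7 genes, this separation follows in part from that choice and is also a description. The ranges overlapped for AU040972 and E230025N22Rik.

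Deup1 encodes a scaffold protein of the deuterosome. Its log2 signal was 10.82, 10.96 and 11.24 after tCNT and 11.13, 11.17, 11.19 and 11.49 after BayTubes. After Graphite it was 10.02, 10.05, 10.21 and 10.68, and after fullerene 9.64, 10.04, 10.46 and 10.51, with Ctrl at 9.31, 9.46 and 9.57. The tube samples all lay above the non-tube samples, whose upper end came close to the lowest tube sample, and the Ctrl samples lay lowest. Deup1 was 0.94 ± 0.14 higher after tubes on the log2 scale (SE, 7 against 8 samples), a 1.92-fold difference (95% interval 0.65 to 1.23 on the log2 scale, limma adjusted p = 0.0087).

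Foxn4, a forkhead transcription factor that takes part in switching on the multiciliated program, had log2 signals of 9.08, 9.23 and 9.52 after tCNT and 9.33, 9.49, 9.55 and 9.81 after BayTubes. It was at 8.29, 8.36, 8.65 and 8.81 after Graphite and at 7.99, 8.42, 8.70 and 8.95 after fullerene. The lowest tube sample and the highest non-tube sample, fullerene 21, did not overlap. Ctrl was at 7.72, 7.81 and 8.02, and its highest sample was just above the lowest fullerene sample. The difference was 0.90 ± 0.13 (1.86-fold, limma adjusted p = 0.0084).

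Ccno encodes cyclin O, which is needed for centriole amplification in multiciliated cells. After tCNT its log2 signal was 10.68, 10.77 and 10.81, and after BayTubes 10.91, 10.97, 11.17 and 11.40. Graphite samples were at 9.96, 10.26, 10.33 and 10.62 and fullerene samples at 9.37, 9.70, 10.10 and 10.54, while Ctrl was at 9.44, 9.46 and 9.57. The 2 sides did not overlap, but the gap between tCNT and the highest Graphite sample was small, and the lowest fullerene sample was below all Ctrl samples. The difference was 0.82 ± 0.13 (1.77-fold, limma adjusted p = 0.018).

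Deup1, Ccno and Foxn4 were all higher after tubes, so the 250 bases before their start sites are shown (RefSeq, GRCm38.p6, 5′ to 3′ on the strand of the gene). This choice was made after the values were seen, as was the pattern in capitals, GTTGCCNNGGNNAC on either strand, a form of the X-box that RFX transcription factors of cilium genes are known to bind. The table lists 2 starts for Deup1, and the sequence shown is that of the start where the pattern was found. It lies at chr9:15627847-15628096 (minus strand), with the pattern on the opposite strand. The sequence of Ccno lies at chr13:112987552-112987801 (plus strand) and that of Foxn4 at chr5:114273762-114274011 (minus strand).
Deup1: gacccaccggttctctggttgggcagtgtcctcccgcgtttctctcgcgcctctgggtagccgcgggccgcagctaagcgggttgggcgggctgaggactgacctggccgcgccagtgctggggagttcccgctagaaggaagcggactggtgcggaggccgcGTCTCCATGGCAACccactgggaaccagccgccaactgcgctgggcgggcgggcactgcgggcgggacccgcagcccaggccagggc
Ccno: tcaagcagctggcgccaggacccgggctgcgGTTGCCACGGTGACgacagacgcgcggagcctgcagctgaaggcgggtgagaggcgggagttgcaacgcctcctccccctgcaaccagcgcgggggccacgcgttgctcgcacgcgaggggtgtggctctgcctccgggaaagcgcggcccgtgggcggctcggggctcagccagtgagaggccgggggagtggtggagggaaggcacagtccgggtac
Foxn4: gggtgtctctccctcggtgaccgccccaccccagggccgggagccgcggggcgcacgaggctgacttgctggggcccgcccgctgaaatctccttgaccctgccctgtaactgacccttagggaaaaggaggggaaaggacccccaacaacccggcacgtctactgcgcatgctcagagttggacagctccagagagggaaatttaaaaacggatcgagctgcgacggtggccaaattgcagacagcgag
The pattern was found before Deup1 and Ccno, and not in the window of Foxn4. Over all promoters of the same table, which add 50 bases after the start, 0.731% of 32851 held it. Counted by gene, 0.851% of 27025 held it. Of 21 genes of multiciliated cell formation with a promoter in the table, 2 held it, and these were Deup1 and Ccno themselves. That list was also made after the values were seen, so its share is a description and not a test. The search lay outside the planned one, which asked for more passing genes in a list and named other patterns. A match is a stretch of letters, and binding was not measured.

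Muc20 and Muc4 encode mucins of the cell membrane and are neighbours on chromosome 16 with overlapping annotated spans, so it is uncertain whether their probes measure fully separate transcripts. The log2 signal of Muc20 was 10.40, 10.64 and 10.73 after tCNT and 10.50, 10.50, 10.54 and 10.78 after BayTubes. It was 9.71, 9.95, 10.10 and 10.23 after Graphite and 9.67, 9.90, 9.91 and 9.94 after fullerene, while Ctrl samples were at 9.86, 10.14 and 10.35. The tube samples lay above all the non-tube and Ctrl samples, and the Ctrl samples overlapped the upper part of the non-tube range. Muc20 was 0.69 ± 0.10 higher after tubes (1.62-fold, limma adjusted p = 0.0084).

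For Muc4, tCNT samples had log2 signals of 11.57, 11.61 and 11.77 and BayTubes samples 11.52, 11.62, 11.70 and 11.79. Graphite samples were at 10.89, 11.27, 11.41 and 11.49 and fullerene samples at 10.52, 10.92, 10.99 and 11.11, with Ctrl at 10.57, 10.61 and 10.71. The highest Graphite sample lay just under the lowest tube sample, and all fullerene samples were lower. The difference was 0.65 ± 0.11 (1.56-fold, limma adjusted p = 0.022). A list of 8 measured mucins was put together after the values were seen and given no test. Muc20 and Muc4 were the 2 that passed, where 0.0423% of all genes did. Point values were above 0 for 5 of the 8, against 7391 of 16530 over all genes. Muc1 did not pass. Muc13 and Muc16 did not pass and were below 0 under every alternative, at -0.21 to -0.04 and -0.22 to -0.05.

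AU040972 is annotated as a long non-coding RNA gene, and its role is not described here. Its log2 signal was 9.69, 9.85 and 10.13 after tCNT, 9.38, 9.70, 9.75 and 9.87 after BayTubes, 9.19, 9.27, 9.40 and 9.40 after Graphite and 8.63, 8.95, 9.08 and 9.38 after fullerene. One BayTubes sample, BayTubes 19, lay among the highest non-tube samples. AU040972 was 0.65 ± 0.11 higher after tubes (1.57-fold, limma adjusted p = 0.032). E230025N22Rik was the dimmest of the 7, at 6.85 to 7.24 in tube samples and 6.26 to 6.98 in non-tube samples, where the 40th percentile of a sample was 5.69 to 5.75. Its difference was 0.55 ± 0.08 (1.46-fold, limma adjusted p = 0.012), the smallest of the 7.

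**Figure D1:**
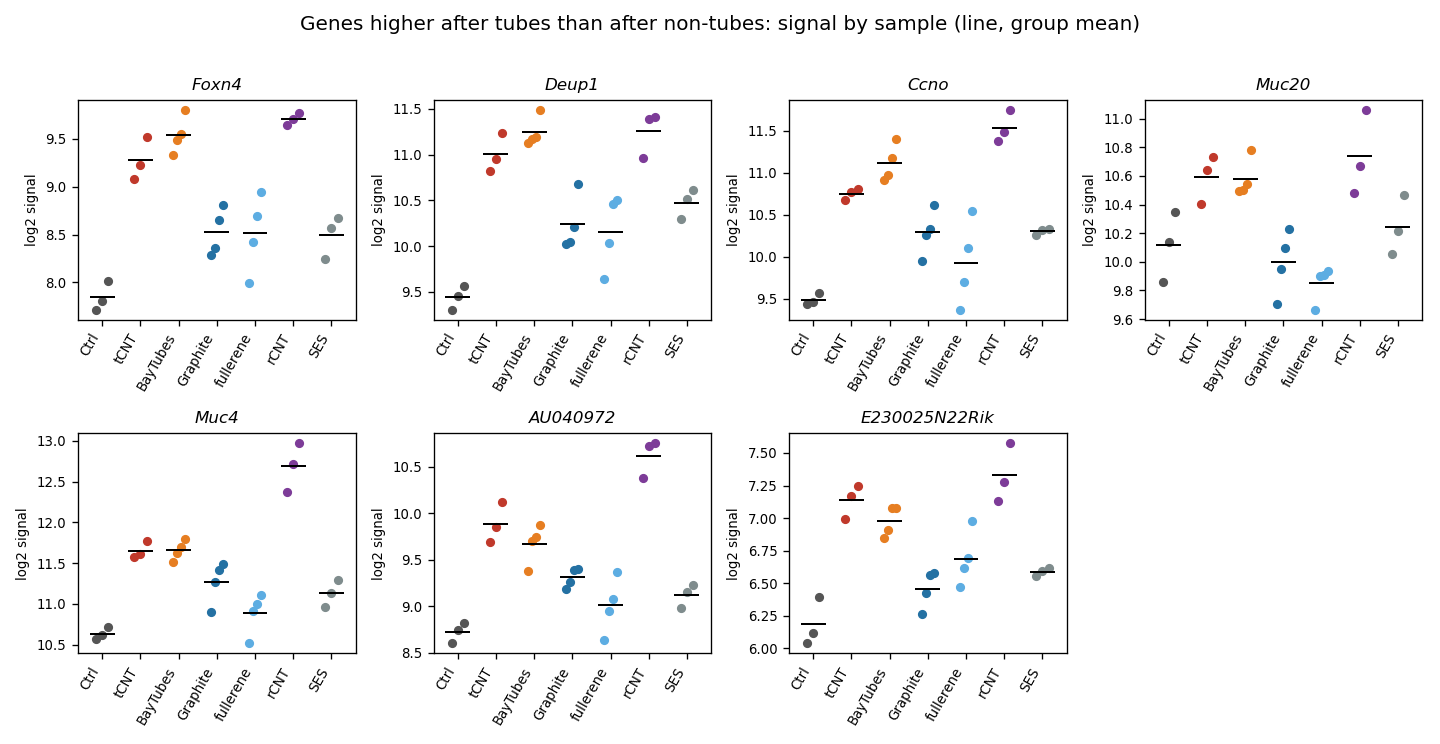
Log2 signal as deposited (vertical axis) of the 7 genes that passed in the comparison of tubes with non-tubes, in every sample of the 7 groups; a point is a sample of RNA from 2 mice and a line is the group mean. For Foxn4, Deup1, Ccno, Muc20 and Muc4 all tCNT and BayTubes samples sit above all Graphite and fullerene samples, and for AU040972 and E230025N22Rik the 2 sides overlap.

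Both sides were also set against Ctrl, to show where each lay relative to vehicle. Against it, 398 genes (2.41%) passed after tubes, 342 higher (2.07%) and 56 lower, and 67 (0.405%) after non-tubes, 35 higher (0.212%) and 32 lower. These comparisons share the Ctrl samples, so their counts are values side by side and their overlap was not assessed. The counts of 398 and 67 both moved when a sample was left out. The tube count was 143, 174 and 192 without Ctrl 2, Ctrl 3 and Ctrl 1, 157 without tCNT 8, 245 without tCNT 9 and 671 without tCNT 7. The non-tube count was 11 without Ctrl 1, 11 without Ctrl 2, 33 without Ctrl 3, 29 without fullerene 23, 30 without Graphite 13, 40 without fullerene 22, 110 without Graphite 15 and 186 without Graphite 14.

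Of the 7 genes, 6 were among the genes higher after tubes than in Ctrl (limma), where 2.07% of all genes were. For non-tubes against Ctrl 0 of 7 passed (limma), where 0.405% of all genes did. The same tube and non-tube samples had picked the 7 genes, so these counts follow in part from that choice. The tube difference from Ctrl was 1.67 ± 0.17 for Deup1, 1.58 ± 0.16 for Foxn4 and 1.41 ± 0.17 for Ccno on the log2 scale. The matching non-tube values were 0.73 ± 0.18, 0.68 ± 0.16 and 0.59 ± 0.17, with adjusted p of 0.057, 0.056 and 0.096 (limma). Among single materials, Ccno passed after Graphite (limma adjusted p = 0.0476), where 1.13% of all genes did. Muc20 did not pass in either comparison with Ctrl: it was 0.46 ± 0.12 after tubes (adjusted p = 0.054) and -0.23 ± 0.13 after non-tubes (adjusted p = 0.33, limma). The values for Muc4 were 1.03 ± 0.13 after tubes and 0.39 ± 0.14 after non-tubes.

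Samples of the remaining nanotube, rCNT, took no part in the comparison of tubes with non-tubes. However, each of them shared an array with a non-tube sample, namely Graphite 16, Graphite 14 or fullerene 21. The fit also shared 1 estimate of the spread. All 7 genes were higher after rCNT than in Ctrl (limma, adjusted p under 0.05), where 12.4% of all genes were called higher. Muc4 rose by 1.99 ± 0.17, AU040972 by 1.94 ± 0.18, Ccno by 1.85 ± 0.21, Foxn4 by 1.79 ± 0.20, Deup1 by 1.70 ± 0.22, E230025N22Rik by 1.09 ± 0.13 and Muc20 by 0.57 ± 0.16. These values and those after the other tubes share the Ctrl samples, and the difference between them was not tested here. Deup1 had 2 dimmer spots, with differences of 0.60 and 0.44, Muc20 and Muc4 had 1 each, with 0.35 and 0.29, and the dimmer spot of E230025N22Rik had -0.05.

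A wider list of multiciliated cell formation genes, put together after the values were seen and given no test, had 25 measured genes. Of these, 3 passed in tubes against non-tubes, where 0.0423% of all genes did, and they were Deup1, Foxn4 and Ccno, named above. Point values were above 0 for 20 of 25, against 7391 of 16530 over all genes. The median was 0.16, against -0.02 over all genes. Cdk1 and Plk1 of this list are also in the mitosis list described below. Foxj1, the main transcription factor of motile cilia, was 0.62 ± 0.12 higher in value (adjusted p = 0.069, limma) and did not pass. Its log2 signals were 10.73, 10.73 and 11.05 after tCNT and 9.73 to 10.31 after BayTubes, against 9.40 to 9.93 after Graphite and 9.62 to 10.16 after fullerene. The high values were those of tCNT, while BayTubes overlapped the non-tubes. Against Ctrl, Foxj1 was 0.53 after tCNT, -0.20 after BayTubes, -0.62 after Graphite and -0.29 after fullerene. In value, BayTubes and both non-tubes thus lay below vehicle. Myb, Ccna1, Gmnc and Stil had values of 0.31, 0.62, 0.33 and 0.75 and did not pass either (adjusted p 0.24, 0.26, 0.35 and 0.26).

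**Figure D2:**
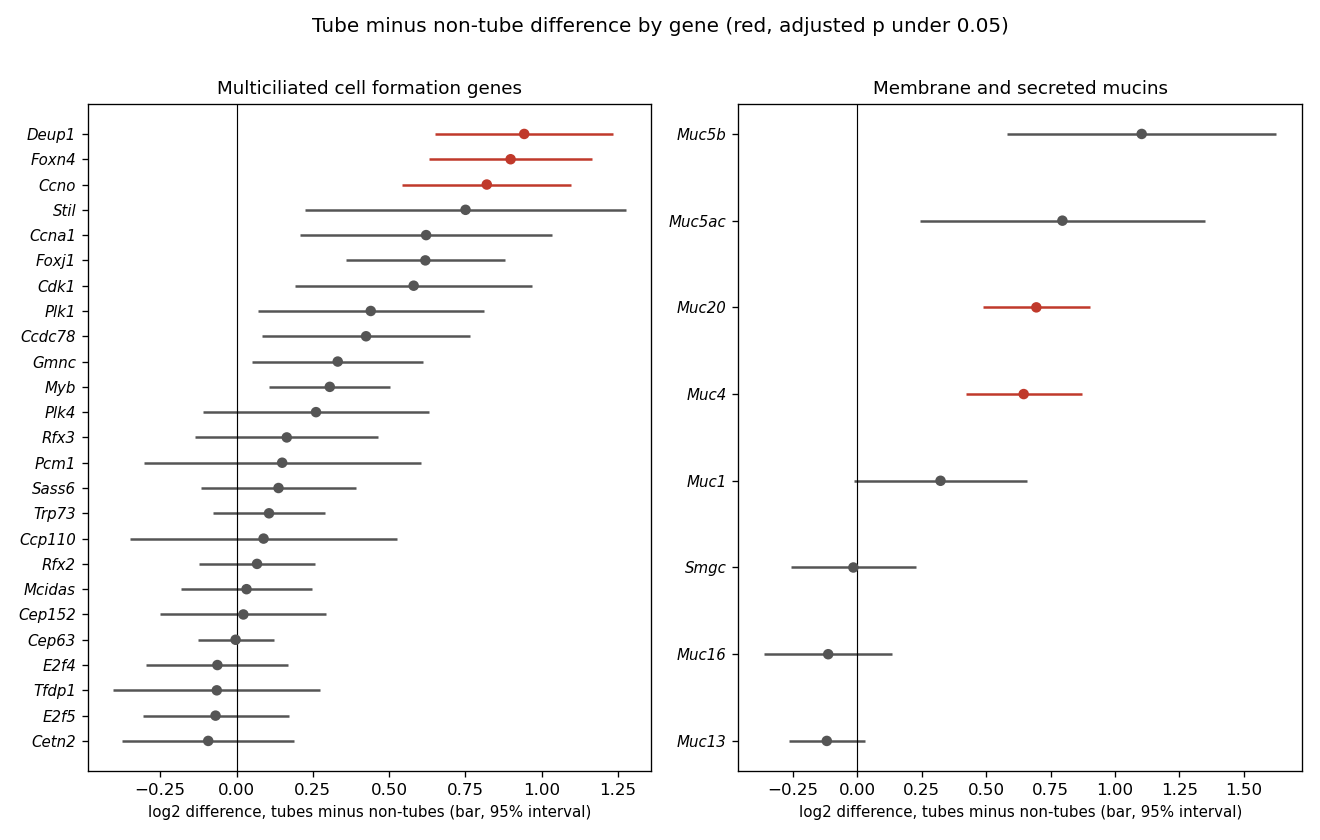
Log2 difference between tubes and non-tubes (horizontal axis) with its 95% interval, for the genes of 2 lists made after the values were seen; red marks an adjusted p under 0.05. Deup1, Foxn4 and Ccno of the multiciliated list and Muc20 and Muc4 of the mucin list are red, and Foxj1, Muc5b and Muc5ac lie to the right without passing.

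Among 18 measured ciliated cell markers, Ccno passed, 17 had a point value above 0 and the median was 0.20. Against Ctrl, 7 were higher after tubes (2.07% of all genes were), with a median of 0.39, and 0 after non-tubes, with a median of 0.20. At an unadjusted p under 0.05 (limma), 11 and 7 of the 18 were higher than in Ctrl, in the same order. Of all 16530 genes, 1260 and 1841 were. Tekt1, a protein of the cilium axoneme, was 0.38 ± 0.09 in value (adjusted p = 0.13, limma) and did not pass. It had risen against Ctrl by 0.62 ± 0.12 after tubes. The mean log2 signal of the list over the samples was 10.49 to 10.77 after tCNT, 10.43 to 10.60 after BayTubes, 10.29 to 10.46 after Graphite and 10.20 to 10.48 after fullerene. The tube samples were higher on the whole and overlapped the highest non-tube samples, with Ctrl at 10.09 to 10.26.

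Genes of goblet cells and mucus had the largest median of the lists, 0.74 over 14 measured genes, with 13 point values above 0 and 8 at an unadjusted p under 0.05, where 4.67% of all genes were higher at that limit. None passed over all genes (limma). Clca1, a secreted protein of goblet cells, was 2.58 ± 0.71 (adjusted p = 0.19), Agr2, a protein folding factor needed for mucins, 1.12 ± 0.23 (adjusted p = 0.069), and Muc5b, a gel-forming mucin, 1.10 ± 0.25 (adjusted p = 0.11). Samples scattered widely: Clca1 was at 12.31, 12.53 and 14.21 after tCNT, 10.29 to 12.51 after BayTubes, 6.63 to 10.54 after Graphite and 7.97 to 12.33 after fullerene. With the dye term removed, the list mean was 10.00 to 10.60 after tCNT and 9.13 to 10.26 after BayTubes, against 8.89 to 9.53 after Graphite and 8.89 to 9.66 after fullerene. The tCNT samples lay above all non-tube samples and BayTubes overlapped them. Against Ctrl, 7 genes of the list were higher after tubes and 0 after non-tubes, where 2.07% and 0.212% of all genes were. At an unadjusted p under 0.05 (limma), 10 and 5 of the 14 were higher than in Ctrl, in the same order. Of all 16530 genes, 1260 and 1841 were. Clca1 had risen by 4.52 ± 0.88, Agr2 by 2.21 ± 0.28 and Muc5b by 1.54 ± 0.31 after tubes.

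Genes of cell division had positive values as a group. Of 23 measured mitosis genes, 0 passed in tubes against non-tubes, 22 had a point value above 0, 15 were higher at an unadjusted p under 0.05, where 4.67% of all genes were, and the median was 0.44. Against Ctrl, 18 were higher after tubes (median 1.25) and 0 after non-tubes (median 0.74), where 2.07% and 0.212% of all genes were. At an unadjusted p under 0.05 (limma), 20 were higher than in Ctrl after tubes and 18 after non-tubes. Of all 16530 genes, 1260 and 1841 were. All 23 mitosis genes had a point value above Ctrl on both sides. Cdc20, an activator of the anaphase-promoting complex, was at 10.61 to 10.97 after tCNT and 10.38 to 11.47 after BayTubes, against 9.95 to 10.28 after Graphite and 9.29 to 10.74 after fullerene, and its difference was 0.76 ± 0.19 (adjusted p = 0.16, limma). Top2a and the kinase gene Cdk1 each gave 0.58 ± 0.18 and 0.58 ± 0.19. Within the 4 compared materials the list mean was highest in BayTubes 17 at 8.96, below the rCNT samples at 9.28 to 9.57, and fullerene 21, at 8.56, lay among the tube samples. Of 22 DNA replication genes, 0 passed, 20 had a point value above 0 and 11 were higher after tubes than in Ctrl, against 2.07% of all genes. After non-tubes 0 were, against 0.212% of all genes. The medians against Ctrl were 0.56 after tubes and 0.35 after non-tubes. At an unadjusted p under 0.05 (limma), 17 and 13 of the 22 were higher than in Ctrl, in the same order.

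**Figure D3:**
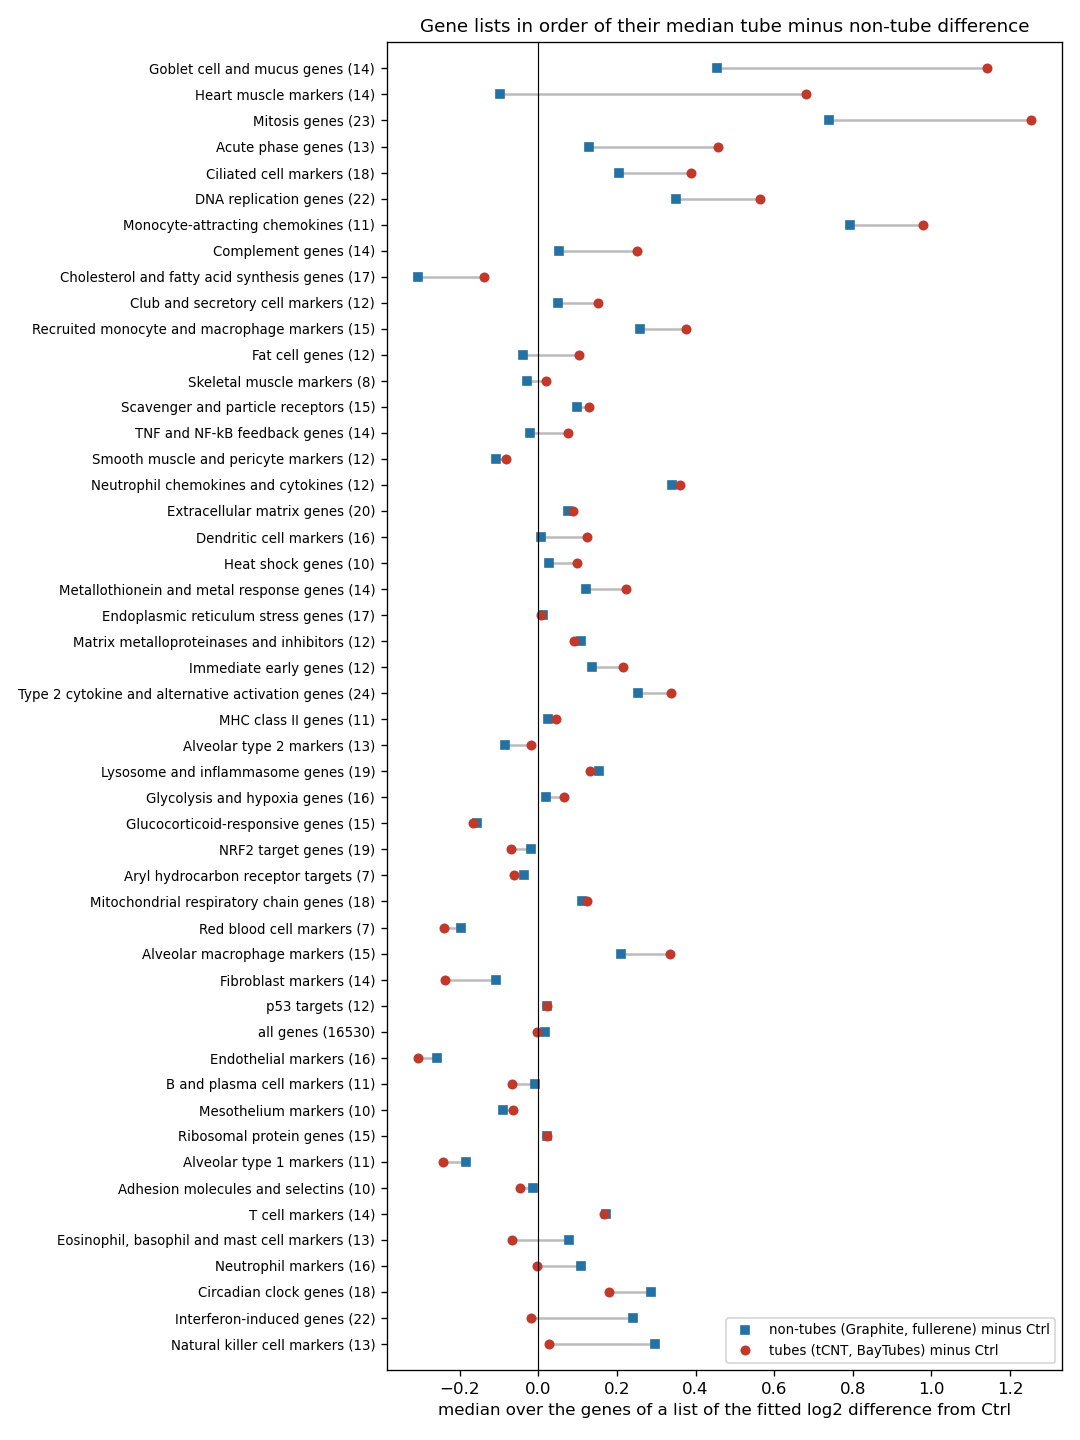
Median over each list of the fitted log2 difference from Ctrl (horizontal axis) after tubes (circles) and after non-tubes (squares), with the number of genes in brackets and lists in order of the median difference between the sides. Goblet cell, heart muscle and mitosis genes have the widest gaps to the right, at 1.14 against 0.45, 0.68 against -0.10 and 1.25 against 0.74, and both markers share the Ctrl samples.

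Heart muscle markers, which heart tissue and the muscle sleeve of the large lung veins express, had high values after 1 of the tubes. Their list median was 0.62 with 0 of 14 past the threshold and 9 higher at an unadjusted p under 0.05, where 4.67% of all genes were. The list mean was 9.37, 9.85 and 10.19 after tCNT against 8.54 to 8.91 after BayTubes, 8.18 to 10.02 after Graphite, 8.45 to 9.10 after fullerene and 8.21 to 9.20 in Ctrl. It was high in all tCNT samples and in Graphite 15. Myl4, an atrial myosin light chain, was 0.95 ± 0.32 (adjusted p = 0.27, limma). The part of heart muscle RNA in the differences given here was not tested.

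Among inflammatory genes, none of the members passed between tubes and non-tubes. Acute phase genes had a median of 0.36, with 13 of 13 point values above 0, and Hp, haptoglobin, was 0.46 ± 0.11 (adjusted p = 0.12, limma). Against Ctrl 3 of them were higher after tubes and 0 after non-tubes, where 2.07% and 0.212% of all genes were. At an unadjusted p under 0.05 (limma), 9 and 4 of the 13 were higher than in Ctrl, in the same order. Of all 16530 genes, 1260 and 1841 were. Among monocyte-attracting chemokines the median was 0.19, and 6 of 11 were higher after tubes than in Ctrl against 1 after non-tubes, beside the same shares of 2.07% and 0.212% over all genes. At an unadjusted p under 0.05 (limma), 9 of these 11 were higher than in Ctrl after tubes and 9 after non-tubes. Their medians against Ctrl were 0.98 after tubes and 0.79 after non-tubes. Type 2 cytokine and alternative activation genes had a median of 0.04, with 14 of 24 point values above 0. In this list 2 were higher and 4 lower at an unadjusted p under 0.05 (4.67% and 7.05% of all genes). Retnla, a resistin-like protein of alternatively activated macrophages, had the highest value of the list. It lay at 16.30, 16.66 and 16.92 after tCNT and 16.00, 16.20, 16.49 and 16.69 after BayTubes, against 13.38, 15.35, 15.67 and 15.80 after Graphite and 14.71, 15.06, 15.62 and 15.63 after fullerene. All tube samples lay above all non-tube samples, with 1 low Graphite sample, Graphite 14, and the difference of 1.32 ± 0.27 did not pass (adjusted p = 0.070, limma). Ear6, an eosinophil-associated ribonuclease, was 0.72 ± 0.13 (adjusted p = 0.056) and was the next gene by p after the 7. The list of eosinophil, basophil and mast cell markers, of which Ear6 had the highest value, had a median of -0.09, with 3 of 13 point values above 0, 1 higher and 2 lower at an unadjusted p under 0.05 (4.67% and 7.05% of all genes). Ctsk, a lysosomal cathepsin, was 0.85 ± 0.19 (adjusted p = 0.11) and the lung collectin gene Sftpd was 0.68 ± 0.16 (adjusted p = 0.12).

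In the other direction no gene passed. The median over the natural killer cell markers was -0.26, with 0 of 13 point values above 0 and 5 at an unadjusted p under 0.05, where 7.05% of all genes were lower at that limit. Interferon-induced genes had a median of -0.19, and 6 of 22 were lower at an unadjusted p under 0.05. One sample, Graphite 15, stood high in both lists, at 9.30 for natural killer markers where the other non-tube samples were at 8.37 to 8.68, and at 10.73 for interferon-induced genes where they were at 9.76 to 10.13. Ncr1, a natural killer receptor, was -0.31 ± 0.12 and Ifit1, an antiviral protein, -0.41 ± 0.14 (adjusted p = 0.32 and 0.28, limma). The clock repressor Nr1d2 was -0.46 ± 0.11 (limma adjusted p = 0.11). The epithelial cytokine Tslp, of the same type 2 list as Retnla, was -0.45 ± 0.11 (limma adjusted p = 0.13).

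**Figure D4:**
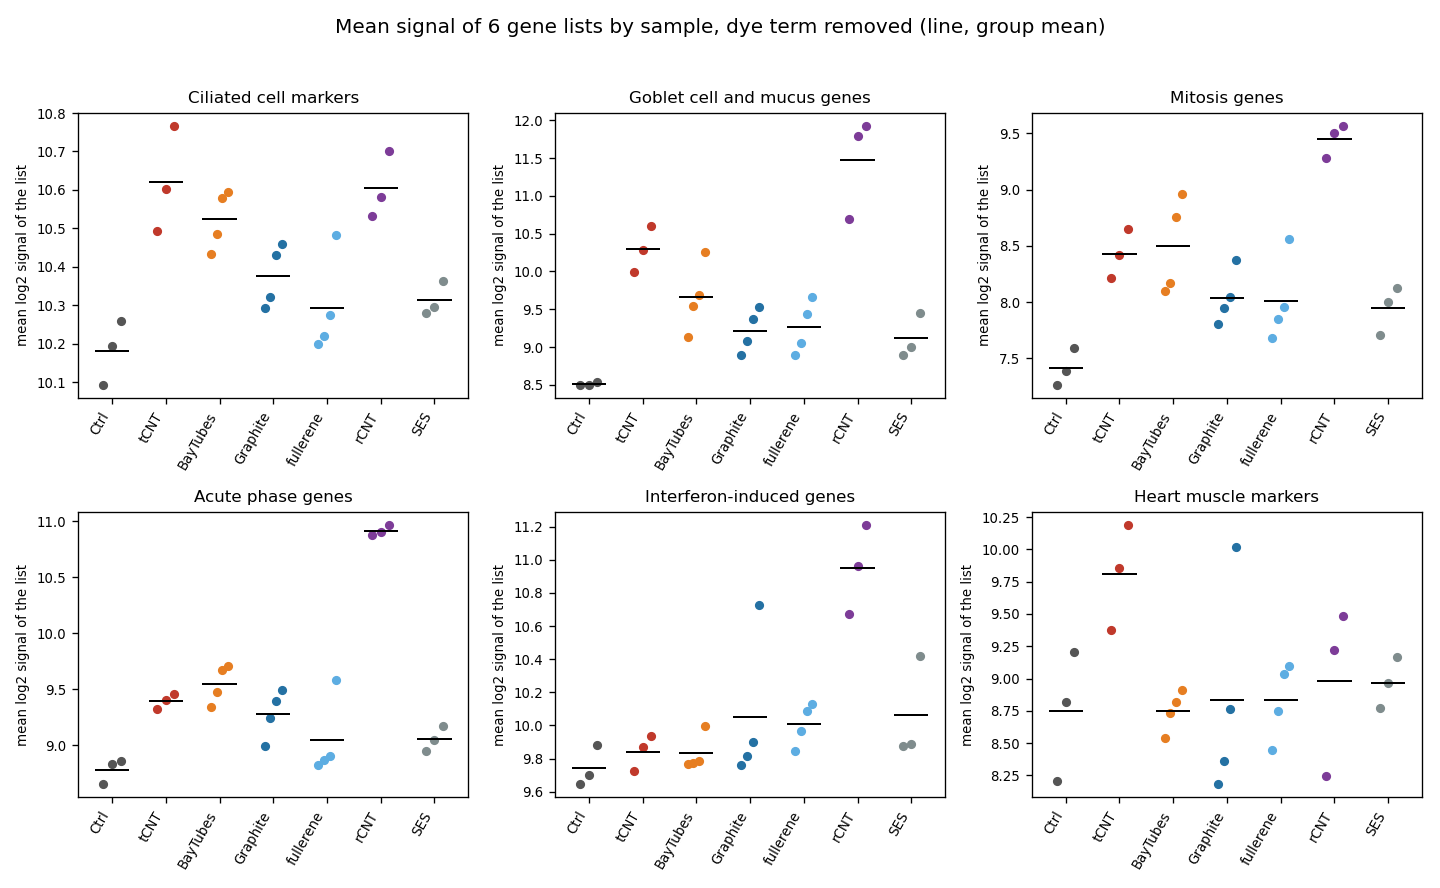
Mean log2 signal of 6 gene lists in every sample (vertical axis) with the dye term removed; a line is the group mean. The tCNT samples stand above the non-tubes in the goblet list, tCNT and Graphite 15 are high for heart muscle markers, and Graphite 15 stands apart in the interferon-induced list.

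Defining genes of the lung were bright on both sides. Sftpc of alveolar type 2 cells was at 17.77 and 17.52 after tubes and non-tubes, Scgb1a1 of club cells at 17.39 and 17.52, Ager of alveolar type 1 cells at 14.08 and 13.91, and the endothelial Pecam1 at 10.90 and 10.82, as means of log2 signal. None passed, with differences of 0.26 ± 0.14, -0.13 ± 0.07, 0.17 ± 0.15 and 0.15 ± 0.17. Club cell markers had a median of 0.14 and alveolar type 2 markers 0.04. Residuals of the 2 samples on an array correlated at a median of 0.411, against -0.053 for other pairs, and the residual SD was 0.414 in Graphite 13 and 0.387 in Graphite 16 against 0.168 to 0.270 in the other samples of the 4 materials. Without Graphite 13 and the array of Graphite 16, a choice made after seeing the data, 9 genes passed, 6 of them among the 7.

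The 2 materials on each side were not alike, and clock genes were among those that separated them. Between tCNT and BayTubes 15 genes passed (0.0907%; 8 higher and 7 lower after tCNT), and between Graphite and fullerene 5 passed (0.0302%). The 7 genes higher after tubes than after non-tubes were not among the 15. For them, tCNT minus BayTubes lay between -0.35 for Ccno and 0.25 for AU040972. The circadian clock is a loop in which Arntl drives the Per genes, whose proteins in turn repress it. No time of day of collection is among the sample details used here. For clock genes, a difference between materials thus cannot be told apart from one in collection time. Arntl was at 8.69, 9.03 and 9.14 after tCNT and at 6.99, 7.31, 7.36 and 7.65 after BayTubes, and at 8.32, 8.40, 8.51 and 8.57 after Graphite and 7.20, 7.31, 7.48 and 7.75 after fullerene. It was high in tCNT and Graphite and low in BayTubes and fullerene, with no overlap between them. The differences were 1.67 ± 0.19 for tCNT minus BayTubes and 1.15 ± 0.17 for Graphite minus fullerene, while that for tubes minus non-tubes was 0.22 ± 0.14 (adjusted p = 0.53, limma). By slide, the last of these was -0.20, -0.40 and 1.51, where the tube sample of the last slide was of tCNT and both non-tube samples were of fullerene.

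Per1 and Per2, the period repressors, ran the other way. Per1 was -0.94 ± 0.14 for tCNT minus BayTubes and -0.83 ± 0.13 for Graphite minus fullerene, and Per2 was -1.31 ± 0.20 and -1.15 ± 0.18. Spon2, a secreted matrix protein, followed Arntl, at 1.45 ± 0.15 and 1.01 ± 0.14. These 4 genes and Pfdn2, a subunit of the prefoldin chaperone at -0.58 ± 0.10, were the 5 that passed for Graphite against fullerene. Against Ctrl, Arntl differed by -0.52 after tCNT, -2.19 after BayTubes, -1.0 after Graphite and -2.15 after fullerene. The count for tCNT against BayTubes fell to 2 without tCNT 8, 3 without tCNT 7, 4 without BayTubes 19, 5 without tCNT 9, 6 without BayTubes 18 and 7 without BayTubes 17. That for Graphite against fullerene was 0 without fullerene 24 and 2 without any one of Graphite 15, Graphite 16, fullerene 22 or fullerene 23.

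**Figure D5:**
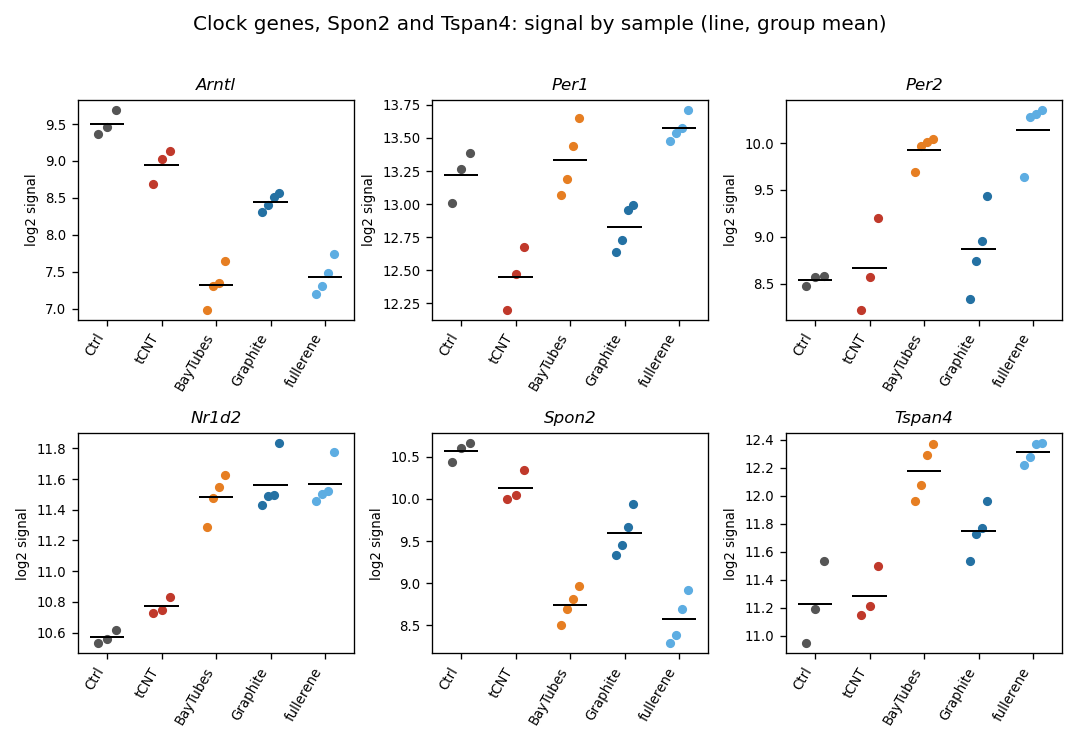
Log2 signal as deposited (vertical axis) of Arntl, Per1, Per2, Nr1d2, Spon2 and Tspan4 in every sample of Ctrl and the 4 materials; a line is the group mean. Arntl and Spon2 are lowest in BayTubes and fullerene, and Per2 and Tspan4 are highest there.

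Since each side held 2 unlike materials, the tubes were also set against each non-tube. Against Graphite 0 genes passed (limma; 2560 at an unadjusted p under 0.05, 15.5%) and against fullerene 17 (0.103%; 10 higher, 7 lower). These counts depended on the samples in the fit. With the fullerene samples left out of it, 10 of 16530 genes passed against Graphite (5 higher, 5 lower). With the Graphite samples left out, 25 passed against fullerene (18 higher, 7 lower). Taken singly against the 2 non-tubes, tCNT gave 13 genes (0.0786%; 8 higher, 5 lower) and BayTubes 5 (0.0302%; all 5 higher). Foxn4 was 1.04 after BayTubes and 0.75 after tCNT against the non-tubes, and the adjusted p was 0.018 and 0.068 (limma). Ccno was 1.00 and 0.64 in the same order, with adjusted p of 0.019 and 0.17. The difference between the tubes did not pass for either gene.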

How the data were processed

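The deposited table holds, per the submitters' processing notes, values made by the authors with Agilent Feature Extraction and limma, without versions or settings. These deposited log2 signals, 1 per spot and sample, had sorted values that differed between samples by at most 0.0856, as after quantile normalization. The background correction and genome build are not given in the sources used here. Array signals have no count depth, and precision rests on how many samples there were.

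Of 62976 spots, 31465 had a gene symbol in the platform table, and names were updated with a RefSeq table of assembly GRCm38.p6. Spots had to exceed the 40th percentile of the sample in 3 or more samples, and the brightest such spot stood for its gene, which left 16530 of 20738 genes. Spots without a name were tested apart. Differences were fitted with limma 3.58.1 in R 4.3.3 on all 24 samples, with group and dye as terms, a random array effect (correlation 0.399) and Benjamini-Hochberg adjustment over all genes of a comparison. Tests were 2-sided, with an adjusted p under 0.05 as threshold and 95% intervals. The fit was tested on simulated data. Promoter sequences came from RefSeq (GRCm38.p6).

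The members of the comparison, 49 gene lists, the naming rule and the alternatives were chosen with earlier results of these data known, and 2 more lists (multiciliated cell formation genes, mucins) were added after the values were seen. The rule allowed naming the 15 highest and 15 lowest genes that passed, for each list the 3 genes with the smallest p, the 5 smallest over all genes, the 3 smallest in each comparison inside a side, and 12 genes of lung identity. Per2, Pfdn2, Dbp and the genes of the added lists were named outside it. Lists were described by counts and medians, with no test of a list. Alternatives changed dye, array, slide, filter, normalization, spot, variance prior, sample weights, samples in the fit and threshold, and left out each material or sample.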

Additional observations from a re-analysis of the deposited data

Results flagged for a closer look

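Clock genes and a few others differed between the 2 materials of one side, as tested with limma. The time of day of collection was not among the sample details, so material and collection time cannot be told apart for clock genes. Arntl differed by 1.67 between tCNT and BayTubes and by 1.15 between Graphite and fullerene, Per1 by -0.94 and -0.83, Per2 by -1.31 and -1.15 and Spon2 by 1.45 and 1.01. Tspan4, a tetraspanin, differed by -0.91 and Dbp, a clock output factor, by -1.02 between tCNT and BayTubes, and Pfdn2 differed by -0.58 between Graphite and fullerene.

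Single samples lay far from the rest of their group of 4 for 9 of the 234 combinations of gene and group that were checked, and chance gives about 1 in 20. On the log2 scale with the dye term removed, Graphite 13 was lowest for Tekt1 (10.61) and Ager (13.30) and highest for Gpnmb (9.24), a glycoprotein of macrophages. BayTubes 17 was highest for Ctsk (13.39) and the membrane mucin gene Muc13 (6.58), and BayTubes 18 for Scgb1a1 (17.50). Fullerene 21 was highest for the chemokine gene Ccl2 (9.46), fullerene 22 for the ribonuclease gene Rnase2a (13.69), and fullerene 23 was lowest for Per2 (9.66).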

How the results depend on the processing

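The differences of the 7 genes stayed above 0 under every alternative run, from 0.25 (E230025N22Rik) to 1.05 (Deup1) on the log2 scale over the planned settings other than leaving out a sample. Their calls did not all hold. Against the count of 7, the comparison of tubes with non-tubes gave 0 with array as a fixed term, 4 with slide as a fixed term, 1 after quantile normalization over the 15 samples, 1 with those samples only, 3 without tCNT as a material, 11 with a filter at the 60th percentile, 25 without Graphite as a material, 29 at an adjusted p under 0.10 and 224 with sample weights. Leaving out 1 sample gave 0 to 19. With array as a fixed term, which pairs the samples hybridised together, only differences within arrays remain. The array of fullerene 24 and tCNT 9 was the only one that held both a tube and a non-tube sample. No causes of these shifts were tested.

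For tCNT against BayTubes (15), the count was 4 with array ignored, 2 with array fixed, 3 after quantile normalization over the 15 samples, 3 with those samples only, 54 with sample weights, 44 without Graphite 13 and the array of Graphite 16, and 2 to 16 with 1 sample left out. For Graphite against fullerene (5), it was 3 without the dye term, 1 with array ignored, 0 with array fixed, 10 with median and MAD scaling, 1 after quantile normalization, 3 with the mean of all spots, 553 with sample weights, 1 with the 15 samples only, 17 without rCNT in the fit, 12 at an adjusted p under 0.10, 0 without Graphite 13 and the array of Graphite 16, and 0 to 7 with 1 sample left out.

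For tubes against Ctrl (398), the count was 260 with array ignored, 0 with array fixed, 1241 with sample weights, 636 at an adjusted p under 0.10, and 143 to 671 with 1 sample left out. For non-tubes against Ctrl (67), it was 26 with array ignored, 0 with array fixed, 337 with slide fixed, 165 with the 60th percentile filter, 849 with sample weights, 38 with the 15 samples and Ctrl only, 142 without rCNT in the fit, 410 at an adjusted p under 0.10, 24 without Graphite 13 and the array of Graphite 16, and 11 to 186 with 1 sample left out. Of genes passing between tubes and non-tubes, the number also higher or lower in the same direction after rCNT (7) was 0 with array fixed, 4 with slide fixed, 95 with sample weights, 24 at an adjusted p under 0.10, and 0 to 18 with 1 sample left out. The number of list genes that passed (1) was 0 with array fixed, slide fixed, quantile normalization, the 15 samples only or no fullerene, 2 with the 60th percentile filter, the mean of all spots, no rCNT or equal sample weight, 25 with sample weights, 5 at an adjusted p under 0.10 or without BayTubes, 8 without Graphite, 3 without Graphite 13 and the array of Graphite 16, and 0 to 6 with 1 sample left out.

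Some differences between tubes and non-tubes changed sign. Without tCNT, Arntl was -0.62, Per1 0.18, Per2 0.42, Spon2 -0.33, Tspan4 0.15, Dbp 0.15, Pfdn2 -0.044 and Scgb3a1 -0.12. Pfdn2 was -0.059 without Graphite, and without fullerene Arntl was -0.36, Per1 0.10, Per2 0.45 and Spon2 -0.17. Pecam1 was -0.0061 without BayTubes, -0.073 without Graphite 13 (up to 0.23 with another sample left out) and -0.12 without Graphite 13 and the array of Graphite 16, where Ager was -0.0016. Sample numbers in the titles are not shared between groups, so there was no replicate number to use as a block, and array was the only pairing. With 3 or 4 pools a material and a median standard error of 0.10, small differences were not detectable.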

Other observations

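Several further genes had values in the comparison of tubes with non-tubes that did not pass the threshold (limma). Higher in value after tubes were the acute phase genes Cp (0.41 ± 0.12) and Serpina3n (0.53 ± 0.17), the neutrophil glycoprotein gene Lrg1 (0.53 ± 0.16), the monocyte receptor gene Cd14 (0.36 ± 0.11), the complement gene C3 (0.55 ± 0.19), the metalloproteinase gene Mmp19 (0.30 ± 0.08), the zinc finger factor gene Zbtb16 (0.62 ± 0.20) and the keratin genes Krt8 (0.36 ± 0.10) and Krt18 (0.32 ± 0.10). Lower in value were Kit of mast cells (-0.40 ± 0.10), the formyl peptide receptor gene Fpr2 (-0.45 ± 0.11), the cytokine gene Il18 (-0.35 ± 0.11), the sialic acid receptor gene Siglecf of alveolar macrophages and eosinophils (-0.33 ± 0.15) and the lipid droplet gene Cidec (-0.39 ± 0.11). Their adjusted p lay between 0.13 for Kit and 0.40 for Siglecf. Lrg1 had the highest value of the neutrophil markers, whose median was -0.11, with 5 of 16 point values above 0, 1 higher and 2 lower at an unadjusted p under 0.05 (4.67% and 7.05% of all genes).

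Against Ctrl, Lrg1 rose after tubes by 0.89 ± 0.19, Cd14 by 0.87 ± 0.13, Mmp19 by 0.47 ± 0.10 and Zbtb16 by 1.47 ± 0.25, at an adjusted p under 0.05 (limma). The non-tube values for the same genes were 0.36 ± 0.20, 0.51 ± 0.13, 0.17 ± 0.10 and 0.85 ± 0.26, none of which passed. Among 16650 spots without a gene name, 0 passed between tubes and non-tubes (limma; 1369 at an unadjusted p under 0.05).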
